A study of Mus musculus with 6 samples.

Results

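The antimicrobial and acute-phase genes examined here are S100a8, S100a9, Lcn2, Slpi, Saa3, Lyz1, Lyz2, Camp, Pglyrp1 and Gm15056, 10 of the 14097 genes listed for colonic P3/P4 macrophages (MΦs). They were taken by symbol, and all 10 are listed. S100a9 and Gm15056 were selected on their measured rise in Il10rb-/- MΦs, so their differences between genotypes are given as a description and no test of them is read. RNA was sequenced from MΦs of untreated 129SvEv mice of 2 genotypes, Il10rb-/- (KO) and Il10rb+/- (het), at 1, 3 and 12 weeks of age, in 6 libraries, 1 for each genotype and age. Il10rb encodes the beta chain of the receptor for IL10, and the allele is deleted in the whole body, so cells other than MΦs also lack it in Il10rb-/- mice. The control mice were littermates that carry 1 deleted allele. Cells were sorted straight from the colonic lamina propria as CD45+ CD11b+ CD11cint CD103- CD64+ Ly6C- MHCII+. At 3 and 12 weeks a library came from 1 mouse, and at 1 week from the pooled colons of several mice. A difference at a given age therefore has no replicate check.

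The deposited values are normalized counts, that is, reads on a gene divided by a size factor of the library. The reads could be read back from them and came to between 6700337 (het, 3 weeks) and 40754971 (het, 12 weeks) per library. Il10rb itself had between 386 and 2341 reads in the het libraries and between 8 and 43 in the KO libraries, as labelled. All 12 listed MΦ markers were detected in every library, among them Csf1r, the receptor for the growth factor CSF1, which had 47225 normalized counts in het and 46878 in KO MΦs at 12 weeks. Not all were as close, and 5 of the 12 were over 3-fold lower in KO at 12 weeks, against 9.99% of all genes. Ratios are log2 of KO over het normalized counts. Each carries an exact (Clopper-Pearson) 95% interval for counting error alone, which sets a library against a library and not a genotype against a genotype. With 0 reads in a library the fold was computed against 3 reads there and is a lower bound that leaves out counting error, and no fold is given where both libraries lay at or under that floor.

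Phagocytes and epithelial cells defend the gut surface with proteins that starve, cut open or coat bacteria. S100A8 and S100A9 pair into calprotectin, which binds zinc and manganese, and lipocalin 2 (Lcn2) binds the siderophores with which bacteria collect iron. SLPI inhibits the serine proteases of neutrophils, SAA3 belongs to the serum amyloid A proteins of the acute-phase response, and the lysozymes and PGLYRP1 act on peptidoglycan of the bacterial wall. Camp encodes the cathelicidin CRAMP, and RefSeq gives Gm15056 the synonym Defb52, a beta-defensin name. Of the 10 genes, 9 reached 50 normalized counts in at least 1 library, the level used below to count genes, and Camp did not. S100a8, S100a9 and Lcn2, 3 of the 9, reached it in the 12-week KO library alone, so their difference there is tied to their being counted.

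Calprotectin and lipocalin 2 transcripts were nearly absent until 12 weeks. S100a8 (ENSMUSG00000056054, chromosome 3 from 90668978 to 90670035 of GRCm38) had 0, 2 and 27 reads in het MΦs at 1, 3 and 12 weeks and 2, 3 and 2628 reads in KO MΦs. At 12 weeks this was 12.8 normalized counts in het and 1673 in KO, a log2 ratio of 7.03 (6.49 to 7.64), and no fold could be given at 1 or 3 weeks. S100a9 (ENSMUSG00000056071, chromosome 3 from 90692632 to 90695721), the partner gene 22596 bases away, had 0, 0 and 71 reads in het and 0, 6 and 4563 reads in KO MΦs. The 12-week KO library thus stood far above the other 5 for both genes. S100a9 went from 33.6 to 2906 normalized counts at 12 weeks, a log2 ratio of 6.44 (6.10 to 6.79). Per kilobase of exon S100a9 lay above S100a8, at 64.3 against 18.4 normalized counts in het and 5566 against 2411 in KO MΦs at 12 weeks. S100a9 was therefore 3.50 times the level of S100a8 in het and 2.31 times in KO. Lcn2 (ENSMUSG00000026822, chromosome 2 from 32384633 to 32388252) had 1, 0 and 20 reads in het and 0, 10 and 766 reads in KO MΦs. Its level at 12 weeks was 9.46 normalized counts in het and 488 in KO, a log2 ratio of 5.69 (5.05 to 6.41). At 3 weeks the 10 reads in KO against 0 in het, in the shallowest library, made Lcn2 at least 1.20-fold higher before counting error, which allows no difference.

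The 250 bases before the transcription start of each gene (RefSeq, GRCm38.p6) were searched for letters of factors known to act on acute-phase genes: C/EBP (TTNNGNAA), NF-kappaB (GGG and CC with any 5 bases between), STAT (TTCNNNGAA) and AP-1 (TGANTCA). Both strands were read, and no match to one motif overlapped a match to another. The windows of S100a9, Slpi and Saa3 are shown since they are those with more than 1 C/EBP match, and capitals mark the matches. The first, of S100a9, spans chr3:90695722-90695971 on the minus strand and holds 2 C/EBP matches.
S100a9: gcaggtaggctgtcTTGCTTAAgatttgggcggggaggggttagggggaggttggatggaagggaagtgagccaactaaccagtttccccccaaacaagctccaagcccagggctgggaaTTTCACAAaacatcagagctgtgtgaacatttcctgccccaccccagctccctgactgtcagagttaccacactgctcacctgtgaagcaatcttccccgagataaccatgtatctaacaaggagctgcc
A C/EBP match was found once before S100a8 (TTAGGAAA) and once before Lcn2 (TTGCTCAA), and Lcn2 also has an NF-kappaB match (GGACTACCCC). A match describes these letters in this window and does not show that a factor binds there.

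Slpi lay higher in KO than in het MΦs at every age, and in the 12-week KO library its level per kilobase of exon was second among the 10 genes to that of Lyz2. Slpi (ENSMUSG00000017002, chromosome 2 from 164354070 to 164389095) had 17.8, 253 and 851 normalized counts in het MΦs at 1, 3 and 12 weeks. In KO MΦs it had 79.4, 552 and 20013 normalized counts. The values were ordered by age in both genotypes, and the KO value at 12 weeks rests on 31430 reads. The log2 ratios at these ages were 2.15 (1.36 to 3.01), 1.13 (0.82 to 1.44) and 4.56 (4.49 to 4.63). The fold at 12 weeks was 23.5. The exons of Slpi overlap 1 annotated gene, a microRNA, and the strand setting of the counting is not given in the sources used here. Its window spans chr2:164356508-164356757 on the minus strand, with 3 C/EBP matches.
Slpi: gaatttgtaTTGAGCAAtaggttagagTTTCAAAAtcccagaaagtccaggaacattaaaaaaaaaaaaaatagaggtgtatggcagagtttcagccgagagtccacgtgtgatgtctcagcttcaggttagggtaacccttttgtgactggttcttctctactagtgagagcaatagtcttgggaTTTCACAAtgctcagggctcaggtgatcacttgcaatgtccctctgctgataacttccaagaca

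Saa3 differed between the genotypes in opposite directions at 3 and 12 weeks. Saa3 (ENSMUSG00000040026, chromosome 7 from 46711998 to 46715700) had 9.92, 752 and 405 normalized counts in het MΦs at 1, 3 and 12 weeks. In KO MΦs it had 13.5, 320.1 and 11531 normalized counts. At 1 week the 10 and 9 reads gave a log2 ratio of 0.44 (-1.03 to 1.90), which does not separate the libraries. At 3 weeks the KO library was 2.35-fold lower, a log2 ratio of -1.23 (-1.45 to -1.01). At 12 weeks it was 28.5-fold higher, a log2 ratio of 4.83 (4.73 to 4.93). The difference between these ages could not be tested with 1 library each. The Saa3 window spans chr7:46715677-46715926 on the minus strand and has 4 C/EBP matches, the most among the 10 genes.
Saa3: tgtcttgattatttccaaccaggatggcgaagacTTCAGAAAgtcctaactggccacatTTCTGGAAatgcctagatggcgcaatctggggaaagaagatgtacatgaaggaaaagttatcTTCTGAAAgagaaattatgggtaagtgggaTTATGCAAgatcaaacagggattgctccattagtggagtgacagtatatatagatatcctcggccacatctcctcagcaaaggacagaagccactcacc
C/EBP matches were found before 7 of the 10 genes, against 36.8% of all 32851 promoter windows of this length, and NF-kappaB matches before 3 of the 10, against 45.8%. No STAT match was found, against 7.02% of windows, and an AP-1 match was found before Gm15056 only, against 6.75%. Gm15056 also has 2 NF-kappaB matches (GGGTTCTTCC and GGGTAGGGCC), and Pglyrp1 has 1 (GGAAAGTCCC).

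The defensin gene Gm15056 (ENSMUSG00000082976, chromosome 8 from 20900606 to 20902627) had the highest ratio of the 10 genes at 3 weeks. It had 0, 2 and 177 reads in het MΦs at 1, 3 and 12 weeks and 4, 131 and 3319 reads in KO MΦs. At 3 weeks the normalized counts were 4.87 and 115, and the log2 ratio of 4.56 has a wide interval (2.68 to 7.63) since 2 reads lie behind the het value. At 12 weeks the normalized counts were 83.7 and 2113, a log2 ratio of 4.66 (4.44 to 4.88). At 1 week 4 reads against 0 made it at least 2.01-fold higher before counting error, which allows no difference.

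Pglyrp1 passed 50 normalized counts in the 12-week libraries only, and Camp in none. Pglyrp1 (ENSMUSG00000030413, chromosome 7 from 18871331 to 18890459) had 1.98, 9.73 and 52.5 normalized counts in het and 7.49, 10.6 and 179 in KO MΦs. At 12 weeks its 111 and 281 reads gave a log2 ratio of 1.77 (1.45 to 2.10), and at 3 weeks its 4 and 12 reads gave 0.12 (-1.61 to 2.21). Its 1-week ratio, from 2 and 5 reads, was 1.92 (-0.69 to 5.31). The intervals at 1 and 3 weeks include no difference. Camp (ENSMUSG00000038357, chromosome 9 from 109847379 to 109849617), a granule protein gene of neutrophils, had 0 reads in 5 libraries and 23 in the 12-week KO library, or 14.6 normalized counts. Against 3 reads in the 12-week het library this is at least 10.3-fold higher, before counting error.

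**Figure D1:**
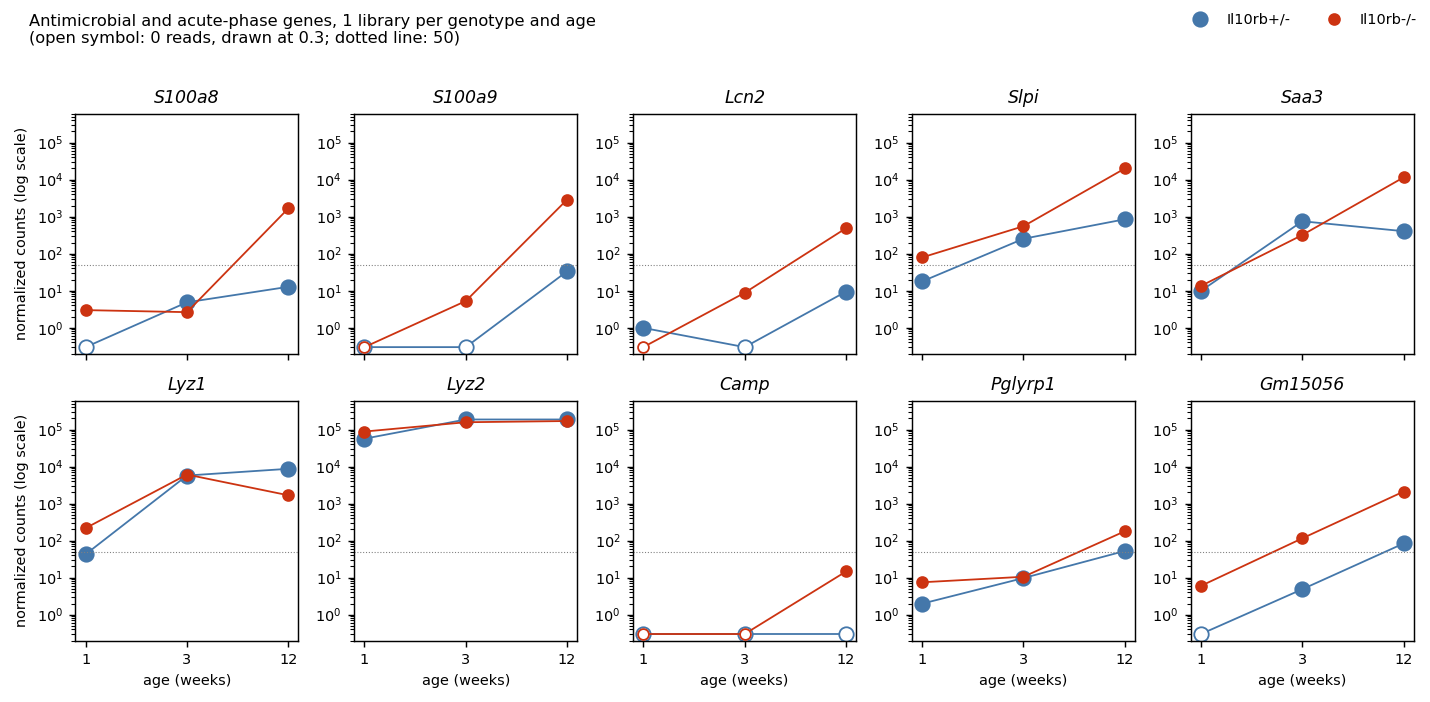
Normalized counts (log scale) of the 10 genes against age in weeks, 1 point per library, blue for Il10rb+/- and red for Il10rb-/-. Open symbols stand for 0 reads and are drawn at 0.3, and the dotted line marks 50 normalized counts. Red lies far above blue at 12 weeks for S100a8, S100a9, Lcn2, Slpi, Saa3 and Gm15056 and below blue for Lyz1.

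The lysozyme genes had another pattern. Mice carry Lyz1, known from Paneth cells, and Lyz2, known from macrophages and neutrophils, side by side on chromosome 10, 5475 bases apart. Lyz2 (ENSMUSG00000069516, 117277331 to 117282321) had 56478, 186441 and 186648 normalized counts in het MΦs and 88072, 157181 and 169416 in KO MΦs at 1, 3 and 12 weeks. It was high in every library, with the lowest values at 1 week, and took between 0.381% (exact binomial interval 0.378 to 0.384) and 1.14% (1.14 to 1.15) of a library's reads. Its log2 ratio was 0.64 (0.62 to 0.66), -0.25 (-0.26 to -0.23) and -0.14 (-0.15 to -0.13) at the 3 ages, under 3-fold at each. Lyz1 (ENSMUSG00000069515, 117287797 to 117292868) had 42.6, 5714 and 8685 normalized counts in het and 217, 6072 and 1673 in KO MΦs. The KO library was thus 5.09-fold higher at 1 week, close to het at 3 weeks and 5.19-fold lower at 12 weeks. The log2 ratios were 2.35 (1.85 to 2.88), 0.09 (0.02 to 0.16) and -2.38 (-2.44 to -2.32). Lyz1 was 134-fold higher (interval 99.2 to 186) at 3 than at 1 week in het and 28.0-fold higher in KO MΦs. At 12 weeks it stood 1.52-fold above its 3-week level in het and 3.63-fold below it in KO MΦs. Of the reads on the pair, Lyz1 took 0.0754% (exact interval 0.0546 to 0.102), 2.97% (2.86 to 3.09) and 4.45% (4.38 to 4.51) in het MΦs at the 3 ages. In KO MΦs the shares were 0.246% (0.208 to 0.289), 3.72% (3.63 to 3.81) and 0.978% (0.941 to 1.02).

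The lysozyme genes are near-identical copies, so their reads can be confused. Their coding sequences are 447 bases each and match at 425 of them (95.1%), with 22 differences and a longest identical run of 118 bases. Of the 75-base windows in the annotated transcripts, 74 of 1189 in Lyz1 and 74 of 1242 in Lyz2 also occur in the other gene (6.22% and 5.96%). The most divergent 90 bases, coding bases 43 to 132 counted from the A of the start codon (GENCODE, GRCm38, minus strand, on the spliced transcript), are shown to let the copies be told apart, with the 13 differing bases in capitals.
Lyz1: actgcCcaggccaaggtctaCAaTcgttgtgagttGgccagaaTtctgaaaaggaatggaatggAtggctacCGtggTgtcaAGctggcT
Lyz2: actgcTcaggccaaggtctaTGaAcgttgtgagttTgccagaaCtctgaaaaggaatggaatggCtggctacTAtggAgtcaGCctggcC
How the authors' counting divided reads in the shared stretches is not given in the sources used here. Per kilobase of exon, Lyz2 stood at 1271, 31.3 and 20.6 times the level of Lyz1 in het and at 389, 24.8 and 97.2 times in KO MΦs at the 3 ages. Whether reads of Lyz2 enter the low Lyz1 values at 1 week was not tested. The promoters share their last 50 bases before the start.

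**Figure D2:**
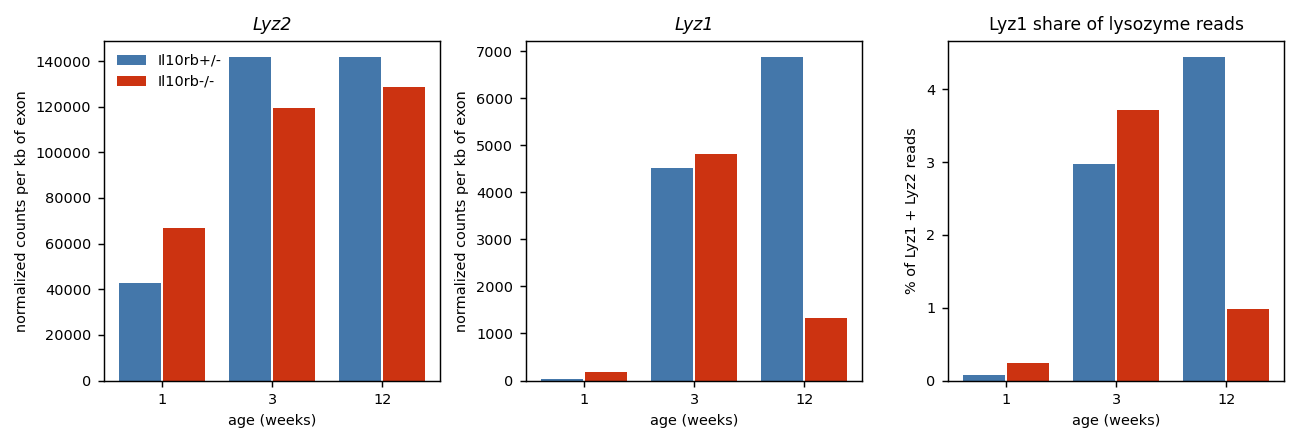
Lyz2 (left) and Lyz1 (middle) in normalized counts per kilobase of exon, and the share of Lyz1 in the reads on both genes in percent (right), against age in weeks, with 1 bar per library, blue for Il10rb+/- and red for Il10rb-/-. The Lyz1 share at 12 weeks is 4.45% in Il10rb+/- and 0.978% in Il10rb-/- MΦs.

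Taken as a group at 12 weeks, 7 of the 9 counted genes were over 3-fold higher in KO MΦs and 1, Lyz1, was over 3-fold lower, while 4.03% and 9.99% of the 11067 genes past the same level were. Scaled by total reads, 6 were over 3-fold higher, since Pglyrp1 came to a log2 ratio of 1.55. The median log2 ratio of the 9 was 4.66, beside 0.04 over all genes. Several of the 9 could be counted only because they were high in that library, so neither value stands as support. From the highest ratio down, S100a8 ranked 8, S100a9 14, Lcn2 26, Saa3 37, Gm15056 44 and Slpi 46 of the 11067 genes. Pglyrp1 ranked 368, Lyz2 6656 and Lyz1 10407. The ranks of S100a8, S100a9, Lcn2 and Gm15056 follow in part from how these genes were counted or selected and do not stand as support. At 3 weeks 3 of the 9, S100a9, Lcn2 and Gm15056, were over 3-fold higher with a count of 0 shown as 1, against 1.34% of all genes, and each had 2 reads or fewer in the het library. By the floor of 3 reads S100a9 has no fold there. None was over 3-fold lower at 3 weeks, against 0.642%. At 1 week 4 were over 3-fold higher (2.75% of all genes), Slpi and Lyz1 with more than 3 reads in both libraries and Pglyrp1 and Gm15056 without, and none was lower (0.75%). Slpi, Pglyrp1 and Gm15056 lay higher in KO at each of the 3 ages, 3 of the 9, where 17.4% of all genes did. The 12-week KO library held the highest value of 7 of the 9, where it held that of 34.3% of all genes. S100a8, S100a9 and Lcn2 were counted through that library alone, so their highest value had to lie there. S100a9 and Gm15056 were selected on their rise in KO MΦs. Neither the count of genes higher at each age nor that of highest values therefore stands as support. The 8 genes other than the lysozymes together took 0.00751% (exact interval 0.00725 to 0.00778) of the reads of the 12-week het library and 0.173% (0.172 to 0.175) of those of the 12-week KO library.

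**Figure D3:**
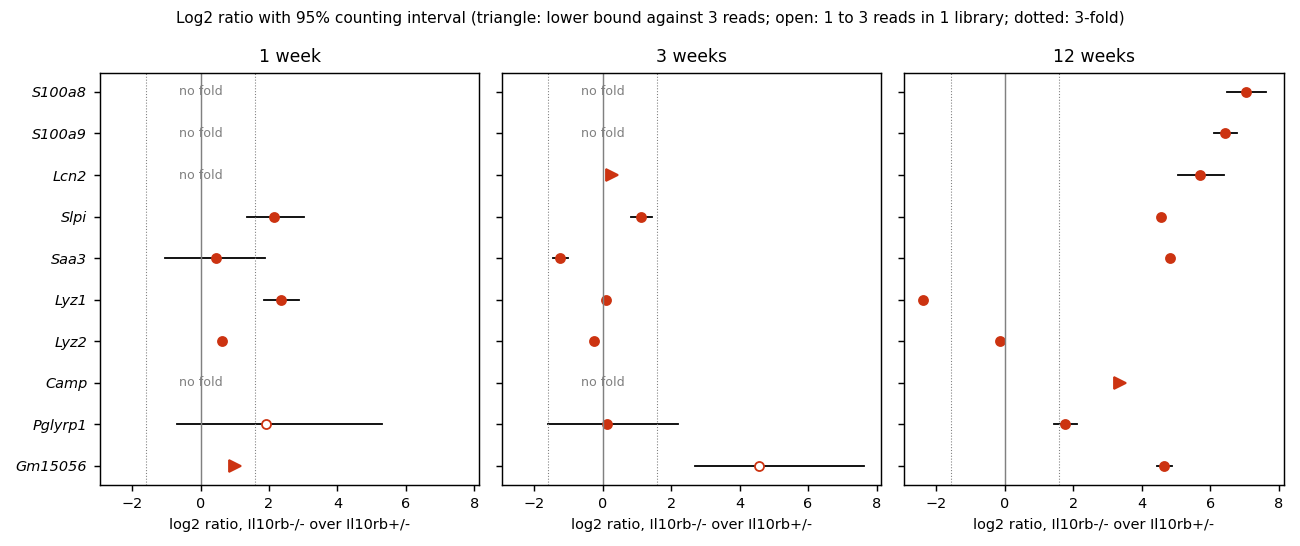
Log2 ratio of Il10rb-/- over Il10rb+/- for each gene at 1, 3 and 12 weeks, with horizontal lines for the 95% counting interval. Triangles are lower bounds against 3 reads, open circles have 1 to 3 reads in a library, and dotted lines mark 3-fold. The words "no fold" mark genes at or under the floor in both libraries, or with a bound not above 1. At 12 weeks Lyz1 is past 3-fold to the left and Lyz2 lies near 0.

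Genotypes could be compared with replicates only over the ages together, 3 KO against 3 het libraries, in a limma fit of log2 values (plus 1) that also held age. None of the 11067 genes passed an adjusted p of 0.05 in either direction (0%), and 853 (7.71%) had an unadjusted p under 0.05. S100a9 and Gm15056, selected on this difference, and S100a8 and Lcn2, counted through the 12-week KO library alone, were in the fit. Their results are not read from this or the age tests, and the other 5 genes are those called tested. Of the 5 genes tested, 0 passed and 1, Slpi, had an unadjusted p under 0.05. Slpi was 2.59 higher on the log2 scale (SE 0.63, n = 6, higher in 3 of 3 pairs), with an adjusted p of 0.627 in limma. The differences were 1.34 for Saa3 (SE 1.10) and 1.12 for Pglyrp1 (SE 0.80), with adjusted p of 0.698 and 0.663 in limma. Lyz1 differed by 0.01 (SE 0.83) and Lyz2 by 0.08 (SE 0.32). Here the spread is that of the KO-to-het difference from age to age, which was wide where the 12-week KO library stood alone. Leaving out the 12-week libraries gave Slpi a difference of 1.61 and an adjusted p of 0.0361 in limma, with 1 residual degree of freedom, and turned the sign of Saa3, to -0.41.

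Age was compared with the genotypes standing as replicates of an age. In limma, 1 gene was higher and 1 lower at 3 than at 1 week (0.00904% each), none of them among the 10, and 957 genes (8.65%) had an unadjusted p under 0.05. Slpi, Saa3, Lyz1 and Lyz2, 4 of the 5 tested, were among the 957. Lyz1 differed by 5.92 on the log2 scale (SE 1.01, adjusted p = 0.189 in limma) and Saa3 by 5.29 (SE 1.35, adjusted p = 0.330). Slpi differed by 3.27 (SE 0.78, adjusted p = 0.298) and Lyz2 by 1.28 (SE 0.39, adjusted p = 0.424), both in limma. All 4 were higher at 3 weeks in both genotypes. Without the 1-week KO library, 1 week is 1 het library, and Lyz1 differed by 7.65. In het MΦs Saa3 was 75.8-fold and Slpi 14.2-fold higher at 3 than at 1 week, and in KO MΦs 23.7-fold and 6.96-fold. With a count of 0 shown as 1, 7 of the 9 genes were over 3-fold higher at 3 than at 1 week in het (5.2% of all genes) and 6 in KO MΦs (3.88%), and 0 were lower in either (1.36% and 1.15%). In het MΦs S100a8, Gm15056 and Pglyrp1 among these 7 rest on 4 reads or fewer in both libraries, and S100a8 and Gm15056 have no fold by the floor. In KO MΦs S100a9 and Lcn2 among the 6 had 0 reads at 1 week and 6 and 10 at 3 weeks.

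From 3 to 12 weeks 3 genes were higher in limma (0.0271%), 0 lower, and 2261 (20.4%) had an unadjusted p under 0.05, among them Slpi and Pglyrp1, 2 of the 5 tested. Slpi differed by 3.46 on the log2 scale (SE 0.78, adjusted p = 0.154 in limma) and Pglyrp1 by 3.14 (SE 0.98, adjusted p = 0.199). Pglyrp1 was counted through the 12-week libraries alone, so its rise there is tied to its being counted and does not stand as support. The 12-week libraries differed in how far they stood from 3 weeks, a difference that was not tested. In KO MΦs Slpi was 36.2-fold, Saa3 36.0-fold and Lcn2 55.5-fold higher at 12 than at 3 weeks, while in het MΦs Slpi was 3.36-fold higher and Saa3 1.86-fold lower. Pglyrp1 was 5.39-fold higher in het and 17.0-fold in KO MΦs. With a count of 0 shown as 1, over 3-fold higher were 5 of the 9 in het (5.41% of all genes) and 7 in KO MΦs (5.75%), and over 3-fold lower 0 in het (0.949%) and 1, Lyz1, in KO MΦs (8.45%). S100a8, S100a9 and Lcn2 among the 7 were counted through the 12-week KO library alone. Pglyrp1, in the counts of both genotypes, was counted through the 12-week libraries alone. Neither count of higher genes therefore stands as support. In het MΦs S100a9, Lcn2 and Gm15056 had 0, 0 and 2 reads at 3 weeks and 71, 20 and 177 at 12 weeks. The interval of Lcn2 there allows no change. Without the 12-week het library, 12 weeks is 1 KO library. The differences were then 4.93 for Slpi, 4.76 for Saa3, -2.42 for Lyz1 and 3.61 for Pglyrp1. Without the 12-week KO library, 12 weeks is 1 het library, and Slpi differed by 1.99. Saa3 then differed by -0.48 and Lyz1 by 1.16, against 2.14 and -0.63 with all libraries. Both fits assume that the 1 library left at 12 weeks varies like the others, so only the size of the difference is given. These comparisons share libraries with each other and with the ratios above.

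Related genes were taken from lists of antimicrobial, acute-phase, receptor and regulator genes, whose counts past 3-fold stand beside 4.03% of all genes higher and 9.99% lower at 12 weeks. Other antimicrobial genes of leukocytes had 13 of 24 past 50 normalized counts, 6 over 3-fold higher and 0 lower in KO at 12 weeks, and their median log2 ratio was 0.91. Hp, which encodes the haemoglobin-binding haptoglobin, had 102 and 6209 normalized counts in het and KO MΦs at 12 weeks, a log2 ratio of 5.93 (5.73 to 6.13). Acod1, the enzyme that makes itaconate, had 823 and 29911, a ratio of 5.18, and already differed at 3 weeks (log2 3.35). Chil3, a chitinase-like protein of macrophages, had 63.4 and 493 at 12 weeks (log2 2.96) and was lower in KO at 3 weeks (log2 -1.88), as Saa3 was. The neutrophil granule gene Ngp had 0 and 282 reads at 12 weeks and Wfdc21, of the same protein family as Slpi, 0 and 256, at least 127-fold and 115-fold higher. The acute-phase list had 11 of 27 past the level, 5 higher and 3 lower over 3-fold, and a median of 1.04. Hp is on both lists and is counted among the higher genes of each. Ltf and Ngp of the leukocyte list are also among the neutrophil markers below, and Chil3 is among the monocyte markers. Ltf, Ngp and Wfdc21 of the leukocyte list and Saa1 and Ptx3 of the acute-phase list reached the level in the 12-week KO library alone. Their rise there is tied to their being counted. The complement gene C3 had 4310 and 27522 normalized counts in het and KO at 12 weeks (log2 2.67) and the protease inhibitor Serpina3f differed by 3.37 at 3 and 1.89 at 12 weeks, while the copper-binding Cp (-2.38) and the metallothionein Mt1 (-1.59) were lower at 12 weeks. The acute-phase genes thus did not move one way.

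Epithelial antimicrobial genes were few, 5 of 21 past the level, with 3 over 3-fold higher at 12 weeks (Pigr 2.06, Dmbt1 3.02 and Reg4 1.84 on the log2 scale) and 4 at 1 week, where 4.03% and 2.75% of all genes were. Among receptors for these proteins or for bacterial products, 12 of 14 passed the level, with 4 higher and 2 lower. Trem1, an activating receptor of phagocytes, had 825 and 9742 normalized counts at 12 weeks and the formyl peptide receptor Fpr2 219 and 2594, a log2 ratio of 3.56 each. Fpr1 (1.66) and Tlr2 (1.65) were also past 3-fold, and the scavenger receptor Cd36 was lower (-3.91). Of 15 regulators past the level (of 18), 2 were over 3-fold higher, among them the hypoxia factor Hif1a (2.33), and 1 was over 3-fold lower, Cebpa (-1.88), a C/EBP factor. Cebpb, the more abundant C/EBP factor, had 48356 and 90806 normalized counts (log2 0.91). The 12-week medians of the epithelial, receptor and regulator lists were 1.84, 0.68 and 0.48. With 1 library per group none of these values was tested.

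**Figure D4:**
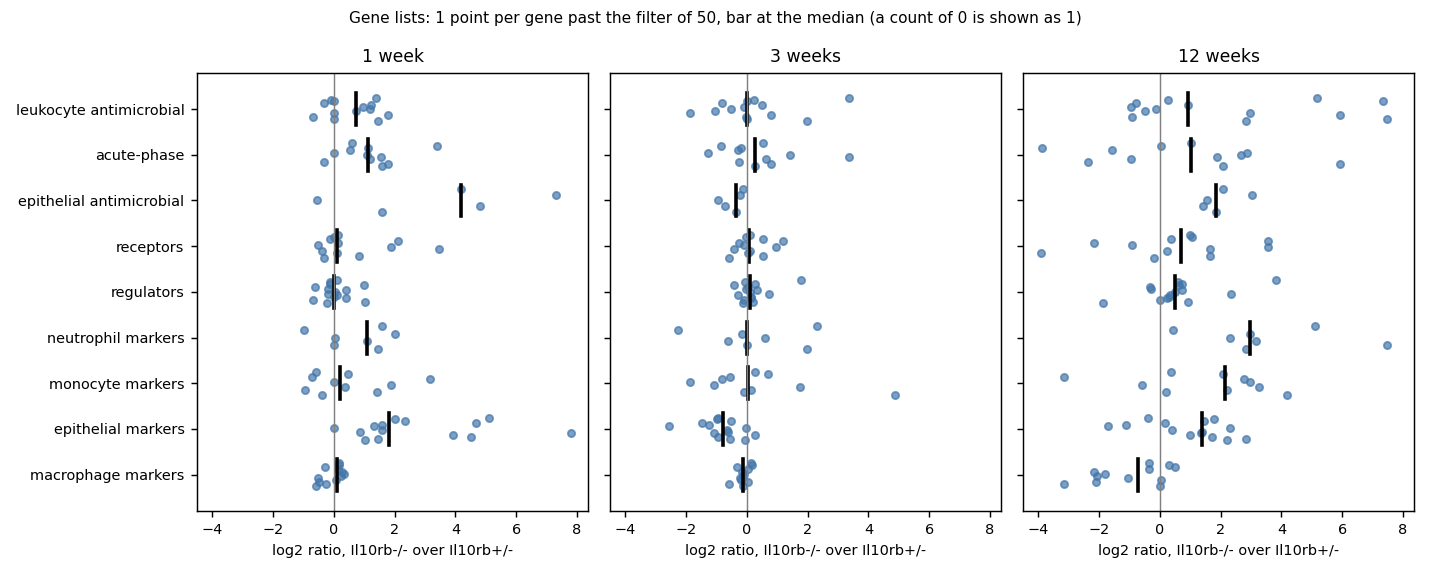
Log2 ratio of Il10rb-/- over Il10rb+/- of each gene in 5 lists of related genes and 4 lists of cell type markers at 1, 3 and 12 weeks, 1 point per gene past 50 normalized counts, with a bar at the median and a count of 0 shown as 1. Neutrophil and monocyte markers have medians of 2.96 and 2.14 at 12 weeks, and MΦ markers a median of -0.72. Of the neutrophil, monocyte and epithelial markers, Ngp, Ltf, Cxcr2, Vcan and Vil1 reached 50 in the 12-week Il10rb-/- library alone.

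Markers of other cells also differed between these libraries, and in bulk RNA a change in the number of cells of a type cannot be told apart from a change in RNA per cell. Neutrophils are rich in calprotectin, lipocalin 2, CRAMP and SLPI, and the sort for CD64+ MHCII+ cells is meant to leave them out. Of the 17 neutrophil markers 13 were listed, and their summed level was between 1618 and 2598 normalized counts in 5 libraries and 12889 in the 12-week KO library. Most of the sum in the 5 libraries was Csf3r alone (1414 to 2120), and most of it in the 12-week KO library was Csf3r and Hdc. At 12 weeks 7 of 7 markers past the level were higher in KO (52% of all genes were), 6 of them over 3-fold. Ngp, Ltf and Cxcr2 reached the level in the 12-week KO library alone. Their being higher there is tied to their being counted, so neither count stands as support. Ngp, Mrgpra2b and Stfa2l1 had 0 reads in the 5 other libraries and 282, 51 and 61 reads in the 12-week KO library, and Ly6g, which defines mouse neutrophils, had 25 reads there, 1 in the 3-week het library and 0 in the rest. At 12 weeks Hdc, the enzyme that makes histamine, had 110 and 3749 normalized counts in het and KO, Csf3r 1420 and 6944, and Mmp8 128 and 1151. Other markers on the list differed less. Retnlg had 346 and 471 normalized counts in het and KO at 12 weeks (log2 0.45). Mpo, under the level, had 24 and 25 reads, and Cebpe, also under it, 19 and 16. The part of neutrophils in the levels of S100a8, S100a9, Lcn2, Slpi, Camp and Pglyrp1 was not tested.

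Epithelial cells also make lipocalin 2, SLPI and lysozyme, and the study stripped the epithelium and sorted CD45+ cells, steps meant to remove them. Epithelial markers, 16 of 17 listed, summed to 193, 1888 and 1303 normalized counts in het MΦs at the 3 ages and to 1039, 964 and 2707 in KO MΦs. Of the 14 past the level, 14 were higher in KO at 1 week (46% of all genes were), 13 lower at 3 weeks (47.8%) and 11 higher at 12 weeks. Vil1 reached the level in the 12-week KO library alone, so its place among the 11 is tied to its being counted. Saa3 had log2 ratios of 0.44, -1.23 and 4.83 at the 3 ages, the first from 10 and 9 reads in het and KO, which did not separate the libraries. Krt8 had log2 ratios of 4.53, -0.96 and 1.70, and Epcam 1.03, -0.06 and 2.19. The 1-week ratios of Slpi and Lyz1 stand in the libraries where epithelial markers were higher in KO, and the part of epithelial RNA in these and in the Saa3 ratios was not tested. Monocyte markers had a median of 2.14 at 12 weeks, with 6 over 3-fold higher and 1 lower of 10 (4.03% and 9.99% of all genes). Plac8 was higher (3.26), F13a1 lower (-3.17) and Ccr2 close (0.21). Of the 12 MΦ markers 5 were over 3-fold lower in the 12-week KO library, among them the fractalkine receptor Cx3cr1 (-3.16), while the most abundant, Cd74 (-0.37) and H2-Ab1 (0.30), were not. Other lists had 12-week medians of -2.82 (8 markers of B and plasma cells), -2.06 (3 of eosinophils), 1.36 (4 of T cells) and 1.34 (4 of dendritic cells). Members differed in sign, with the plasma cell marker Sdc1 at 3.13 and Jchain at -3.29, and Cd4 at -3.03 against Cd3g at 2.57. Vcan of the monocyte list and Cd3e and Cd3g of the T cell list reached the level in the 12-week KO library alone. Ccr3 of the eosinophil list reached it in the 12-week het library alone. Their 12-week differences are tied to their being counted, so the counts and medians of these 3 lists do not stand as support.

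Genes whose pattern over the 6 libraries lay nearest were found by the root-mean-square difference of log2 values after centring each gene. For Slpi these were Hp (0.56), Hdc (0.69) and Acod1 (0.76). For Gm15056 they were Acod1 (0.58), the uridine phosphorylase Upp1 (0.65) and Ly6c2 (0.68). Ly6c2 encodes part of the Ly6C antigen that the sort selected against, and it had 143 normalized counts in het and 2611 in KO MΦs at 12 weeks. Near to Lcn2 were Hdc (0.65) and Fasl (0.71), and nearest to S100a8 were Asprv1 (0.88), Ifng (0.95) and S100a9 (1.03). S100a9 had Upp1 (1.02), S100a8 and Lcn2 (1.14), and Saa3 had Chil3 (0.70), Spon1 (1.07) and Slpi (1.19). Lyz1 lay nearest to Hal (0.50), the histidine-degrading enzyme, Tppp3 (0.73) and the chemokine Ccl8 (0.79). Lyz2 had Micall2 (0.08), Gstp1 (0.12) and Slc25a24 (0.12), and Pglyrp1 had Abtb2 (0.27), Cd3g (0.28) and S1pr3 (0.41). The distances of genes with few reads turn on how a count of 0 is shown, and no shared control is read from them.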

How the data were processed

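RNA-seq of 6 libraries was analysed. Per the labels and methods, the authors trimmed reads with Trim Galore, aligned them to mm10 with TopHat and counted them per gene with HTSeq. They deposited a normalized signal, counts divided by DESeq size factors, with a count of 0 shown as 1. Versions, gene annotation and strand setting are not given in the sources used here. The labels name a SMART-Seq kit and the methods oligo dT beads. Every other value was a whole multiple (within 0.01 reads, 100% of values) of 0.473 to 2.43 normalized counts per read, from which reads were read back. Genes at 50 or more in at least 1 library (11067) were counted past 3-fold. limma 3.58.1 (R 4.3.3) was fitted on log2 of the value plus 1 with genotype and age as terms, a trend of variance on level and p-values adjusted by Benjamini-Hochberg. The planned count model was not run, since the deposited values are normalized and hold no zeros. Ratios, intervals and distances were computed in Python 3.11.15 (scipy 1.17.1, numpy 2.4.6, matplotlib 3.10.9, pandas 2.3.3) and tested on simulated data. Gene positions are from GENCODE vM21, and exon length per gene is merged over transcripts. Intervals cover counting error only, since the reads carry no molecular identifiers, and lower bounds leave it out.

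The genes and lists were chosen with earlier results of these data known. Named in the text are the 10 genes, the 3 genes nearest in pattern to each, at most 5 genes of each related list that were over 3-fold apart at 3 or 12 weeks, with the highest maximum, and the 3 most abundant markers of a cell type with markers at 0. Cebpb, Ly6g, Cx3cr1, Ltf, Cxcr2, Vcan, Retnlg, Mpo, Cebpe, Saa1, Ptx3, Cd3e and Vil1 were added after their values were seen. Some genes that this rule names are not reported here.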

Additional observations from a re-analysis of the deposited data

Results flagged for a closer look

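The log2 ratio of Saa3 was -1.23 at 3 weeks and 4.83 at 12 weeks, so the KO library lay below het at one age and above it at another. Lyz1 had log2 ratios of 2.35, 0.09 and -2.38 at 1, 3 and 12 weeks, and Lyz2 0.64, -0.25 and -0.14. These were picked out because the direction turned between ages. The difference between ages was not tested, since each genotype has 1 library at an age.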

How the results depend on the processing

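With a pseudocount of 10 the genes over 3-fold higher came to 2 at 1 week and 1 at 3 weeks, and at a threshold of 2-fold 1 gene, Saa3, was lower at 3 weeks. Scaling by total reads moved the median of all genes by -0.22 at 12 weeks and left 6 genes over 3-fold higher there. In limma, genotype called 1 gene lower with a pseudocount of 10 and 1 with no age term, and 2 to 51 higher and 1 to 10 lower when the libraries of an age were left out (most without 12 weeks). Age from 1 to 3 weeks called 7 higher with a pseudocount of 10, 4 with no genotype term, and 0 to 32 without 1 library (most without 1-week KO). Age from 3 to 12 weeks called 7 higher with a pseudocount of 10, 0 with TMM scaling, 1 with no genotype term and 1 to 1560 without 1 library (1560 without 12-week het, 483 without 12-week KO), and called 1 lower with a pseudocount of 10 and 0 to 1564 without 1 library. The fits without libraries have 1 residual degree of freedom, and the cause of each change was not tested. Of the other values for single genes, 258 stayed, 14 moved, 11 passed the threshold and no called value reversed. Signs turned in 16 values that were not called: 3 were Lcn2 at 1 week, on 1 read (-0.50 by total reads), and 13 were limma differences, among them Lyz1 by genotype (-1.14 without 1 week). These counts of single-gene values include limma values of S100a8 and Lcn2, and of S100a9 and Gm15056 by age, which are not read above and do not stand as support. A test on the reads was planned and not run. No paired analysis was possible because each group holds 1 library, so replicate numbers pair nothing, beyond the age term, which already sets KO against het within an age. Depth limits S100a8, S100a9, Lcn2, Pglyrp1 and Gm15056 before 12 weeks, where most rest on 12 reads or fewer, and Camp throughout.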
